A study of Mchenga conophoros and Petrotilapia sp. 'chitimba' with 16 samples.

Results

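The 10 genes described here (egr1, egr2, egr3, npas4, ier2, fosb, fosl1, fosl2, atf3 and klf4) encode immediate early transcription factors and their close relatives. They were followed through 16 RNA sequencing libraries from the whole brains of 8 adult male cichlid fish. Each gene was taken as the locus in the authors' count table that carries its symbol and fully matches an annotated gene, out of 61384 loci of which 30487 have such a match. All 10 symbols were found, and each has 1 such locus. For egr1 and fosl1 there is also a second locus under the same symbol, next to or antisense to the gene, and it was kept apart.

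Immediate early genes are the first genes that a neuron switches on when it is strongly stimulated. Calcium and kinase signals act on factors such as CREB and SRF that are already bound to DNA, so transcription starts without new protein, and the RNA is usually short-lived. Their products are themselves transcription factors that set a later wave of genes in motion, and in fish and mammal brains egr1 and the fos family are widely used as markers of recently active neurons.

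Of the 8 fish, 4 were Mchenga conophoros (MC) and 4 were Petrotilapia sp. 'chitimba' (PC). By the series' own account they are unequal in mirror-elicited aggression. Within each species 2 fish saw a mirror placed in their home tank during 15 min, and 2 were controls, and the brain was taken 90 min after the exposure. Every fish gave 2 libraries. The input is total RNA, and the IP is the RNA of ribosomes precipitated with antibodies to phosphorylated ribosomal protein S6 (pS6), a modification that rises in active neurons (the PhosphoTRAP method). The 8 groups of species, condition and fraction thus hold 2 libraries each. Batch a held fish 9, 10, 11 and 12 and batch b fish 21, 22, 23 and 24, with 1 fish of each species and condition in each. The labels name no genetic change or drug, and all fish are males sampled at 1 time.

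Input libraries held 10073251 to 12190271 counts in 6 fish, and 22058698 and 23594320 in the 2 PC mirror fish. IP libraries held 1872019 to 11186928 counts, the lowest in both MC fish of batch a, and were sparse: 3714 to 10466 loci had a count, against 30469 to 34760 in the inputs. Neuronal markers were present in every input (all 7 matched, among them snap25, syt1 and gad1), as were markers of myelin, microglia and vessels. A pituitary hormone subunit gene (cga) was at 0 in 1 control input of each species and at 96.8 to 267 CPM (counts scaled to a common library size) in the other inputs. In such bulk tissue, fewer cells of a type and less RNA per cell cannot be told apart. The labels give 1 fish per library pair, so these few fish are the replicates. The edgeR p-values rest on a spread that draws on all loci as well as on these fish.

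By the coordinates in the authors' table, for which no genome build is given in the sources used here, egr1 lies on NC_036781.1 at 22623898 to 22628051 on the minus strand. The same sequence carries fosl1 (28200243 to 28203578, plus strand) and npas4 (28255948 to 28261964, plus strand), which are close neighbours. The other 7 genes lie on 7 different sequences. These are egr2 on NW_020192337.1 (21510 to 24085, plus), egr3 on NC_036791.1 (13068979 to 13077909, minus), fosb on NC_036793.1 (21196466 to 21204368, plus) and fosl2 on NC_036798.1 (12341768 to 12349601, minus). The remaining 3 are atf3 on NC_036794.1 (20306219 to 20310461, minus), klf4 on NC_036786.1 (46150164 to 46154497, minus) and ier2 on NC_036785.1 (5075057 to 5076598, minus). Transcript lengths are not used here, so levels are compared between libraries for 1 gene and never between genes.

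The first comparison asks whether mirror exposure changed the RNA of these genes in the whole brain. All 10 had enough counts to be tested in the 8 inputs, and none passed the threshold of an adjusted p of 0.05 in edgeR's quasi-likelihood test, pooled over both species. Of all 28742 loci tested, 3 did (0.0104%). The fold changes of 8 of the 10 genes were below 0, with a median of -0.41 on the log2 scale, beside -0.08 over all loci. An unadjusted p under 0.05 was found for 2 of the 10, npas4 and ier2, and for 4.07% of all loci (1170). In the same fit of the 8 inputs, the contrast within MC called 0 of 10 genes and 0.0522% of loci (15). The contrast within PC called 0 of 10 genes and 0% of loci, where 417 loci had an unadjusted p under 0.05. Errors and p-values given for MC or PC therefore share an estimate of the spread over all 8 inputs.

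**Figure D1:**
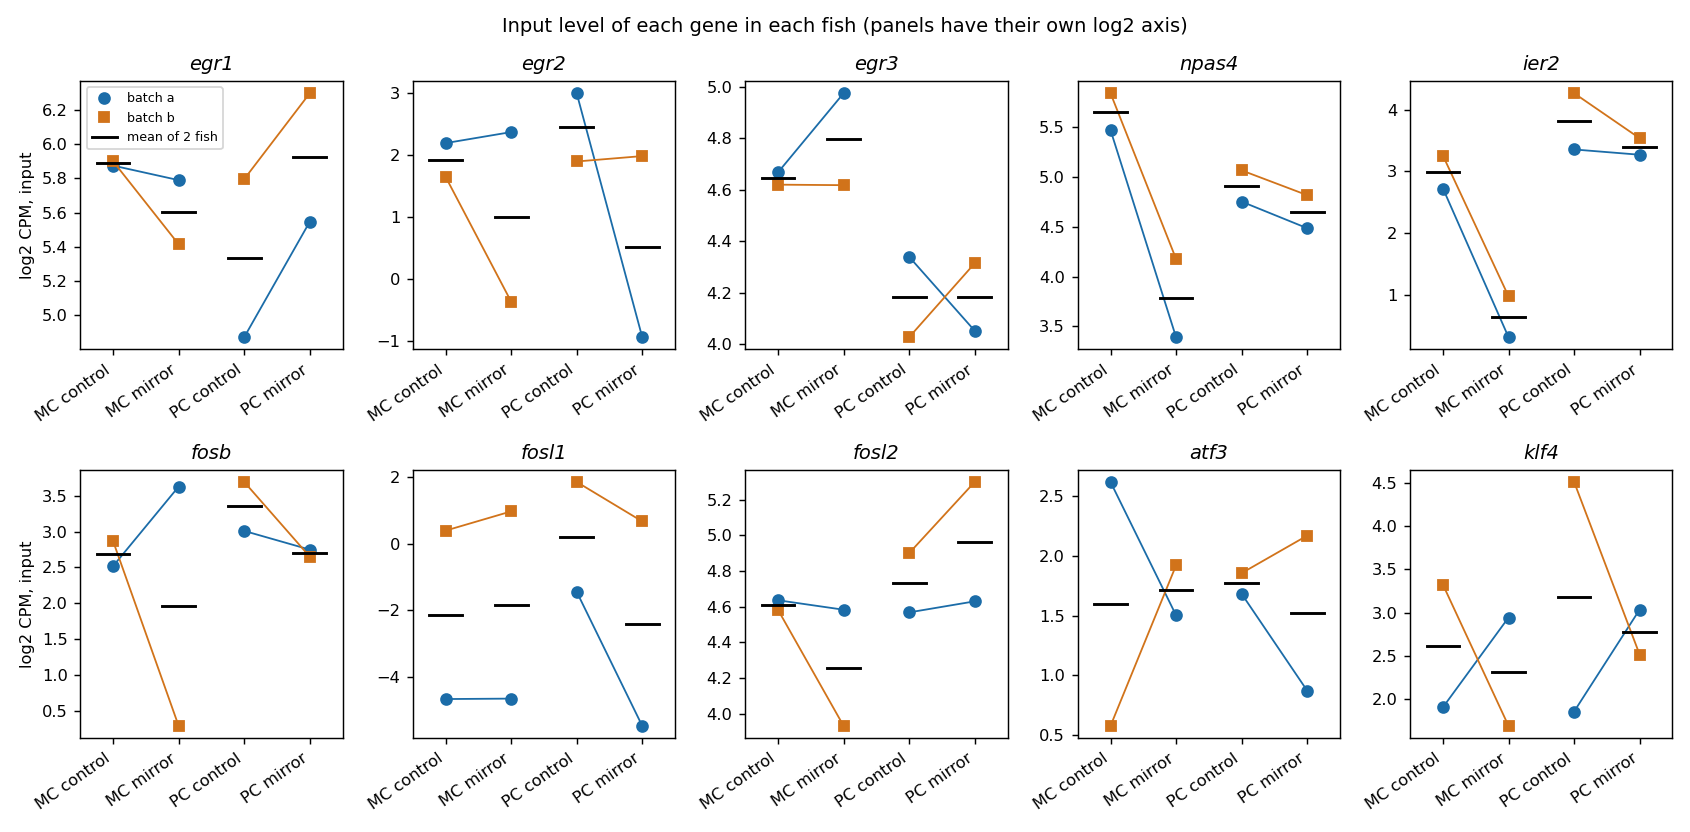
Input level of each gene in each fish, as log2 CPM (y axis, separate for each panel) by species and condition (x axis); lines join the mirror and control fish of 1 species and batch, and black bars are means of 2 fish. The npas4 and ier2 panels show all 4 lines falling, with both MC mirror fish lowest, while klf4 and atf3 lines cross by batch.

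The gene with the smallest p was npas4, which encodes a bHLH-PAS factor that in mammals is made mainly in neurons, in response to calcium entry, and adjusts inhibitory synapses. Its input level was 44.35 and 57.32 CPM in the MC control fish (numbers 10 and 22) and 10.45 and 18.04 CPM in the MC mirror fish (9 and 21). In PC it was 26.92 and 33.47 CPM in the control fish (11 and 24) and 22.39 and 28.18 CPM in the mirror fish (12 and 23). Both MC mirror fish thus lay below every other fish and both MC control fish above every other fish, while the PC groups overlapped. The share of all loci with this full order is not given here. The weaker rule, both MC mirror fish below both MC control fish, held for 18.5% of all loci. Pooled over species the log2 fold change of npas4 was -1.06 ± 0.22 (SE), with an unadjusted p of 0.00109 and an adjusted p of 0.547 (edgeR). Within MC it was -1.87 ± 0.32 (95% interval -2.6 to -1.14, adjusted p 0.152), and within PC -0.26 ± 0.31 (-0.96 to 0.45, adjusted p 1). The call depends on the method: in MC the adjusted p of npas4 was 8.86e-05 with DESeq2 and 0.00105 with no filter on low counts, and it was 0.00429 to 0.0395 without fish 9, 11, 12, 21, 23 or 24 in turn, but 0.131 and 0.108 without MC control fish 10 or 22. These settings also moved the number of all loci called in MC from 15 to 374 with DESeq2, 550 with no filter and 292 to 964 in those 6 fits. Over all alternatives the MC adjusted p of npas4 ran from 8.86e-05 to 1. The pooled value passed with DESeq2 (0.0115), with no filter (0.0403) and without MC mirror fish 21 (0.0346).

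The next smallest p belonged to ier2, a short nuclear protein induced by growth factors and neuronal activity in mammals. Its input level was 6.562 and 9.508 CPM in MC control, 1.197 and 1.913 CPM in MC mirror, 10.2 and 19.28 CPM in PC control, and 9.634 and 11.61 CPM in PC mirror fish. The counts behind the MC mirror values were 15 and 21 reads, against 83 and 105 in MC control. As for npas4, the MC groups did not overlap and the PC groups did. The pooled log2 fold change of ier2 was -1.39 ± 0.38 (unadjusted p 0.00531, adjusted p 1). Within MC it was -2.38 ± 0.56 (95% interval -3.64 to -1.11, adjusted p 0.37), and within PC -0.41 ± 0.52 (-1.58 to 0.77). In MC, DESeq2 gave ier2 an adjusted p of 0.0142, and over all alternatives it ran from there to 1.

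Since each batch held 1 fish of each species and condition, the mirror fish can be set against the control fish processed beside it. For npas4 the mirror minus control differences in log2 CPM were -2.08 (MC, batch a), -1.67 (MC, batch b), -0.27 (PC, batch a) and -0.25 (PC, batch b). For ier2 they were -2.42, -2.29, -0.09 and -0.73 in the same order. Both genes were lower in the mirror fish in 4 of 4 pairs, which 6.82% of all loci also were, and no other gene of the 10 was. The exact sign-flip permutation p over 4 pairs (two-sided) was 0.125, the smallest that 4 pairs can give. Both MC mirror fish lay below both MC control fish for 3 of the 10 genes (egr1, npas4 and ier2), against 18.5% of all loci.

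**Figure D2:**
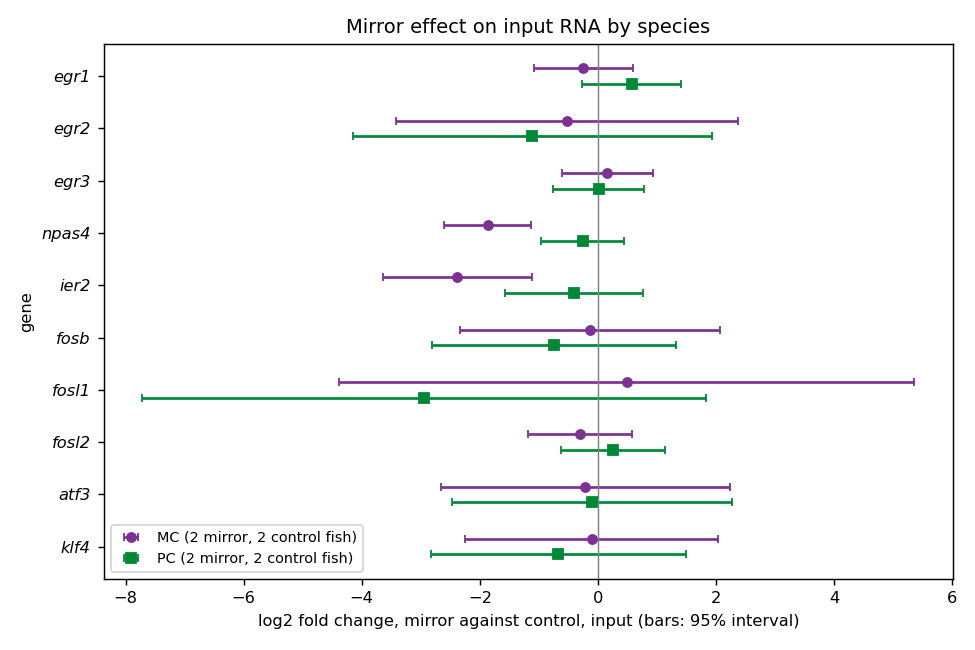
Log2 fold change of mirror against control in the inputs (x axis, bars are 95% intervals from the edgeR fit) for each gene (y axis), in MC and in PC with 2 mirror and 2 control fish each. The MC intervals of npas4 (-2.6 to -1.14) and ier2 (-3.64 to -1.11) exclude 0 before adjustment, and every PC interval includes 0.

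Whether the species differ in their response was tested by the interaction in the same fit. None of the 10 genes passed, as against 0.0104% of loci. For npas4 the mirror effect was higher in PC than in MC by 1.61 ± 0.44 on the log2 scale (95% interval 0.6 to 2.61, unadjusted p 0.0057, adjusted p 0.857). For ier2 the difference was 1.97 ± 0.75 (0.26 to 3.67, unadjusted p 0.0285, adjusted p 0.971). A species difference in the response of these genes was therefore not established after adjustment. Summed neuronal marker levels beside these values were 3680 to 3690 CPM in MC control, 3200 to 3600 in MC mirror, 3090 to 3470 in PC control and 2540 to 3400 in PC mirror inputs, with no neuronal marker at 0 in any. In MC the median log2 fold change of the 7 neuronal markers was -0.12, and the 1 muscle marker matched, myl1, was at 3.89 to 38.3 CPM in control and 52.1 to 75.4 in mirror fish; the part of either in the result was not tested.

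Among the zinc-finger factors of the EGR family, egr1 is the most used activity marker, egr3 is induced beside it and acts in plasticity, and egr2 is known in mammals also for its role in hindbrain and myelin formation. The input level of egr1 was 58.66 and 59.67 CPM in MC control, 55.29 and 42.63 in MC mirror, 29.23 and 55.52 in PC control, and 46.72 and 78.68 in PC mirror fish. The mirror fish were lower in both MC pairs (by -0.09 and -0.48 log2) and higher in both PC pairs (by 0.67 and 0.50). The share of all loci with these signs is not given here, so the pattern has no background beside it. Both MC mirror fish lay below both MC control fish, as for 18.5% of all loci, and the PC groups overlapped. Neither change passed the edgeR test. The log2 fold change of egr1 was -0.25 ± 0.37 in MC and 0.57 ± 0.37 in PC, and the difference between them, 0.82 ± 0.52, had an unadjusted p of 0.151. Pooled over species it was 0.16 ± 0.26.

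The second locus under the egr1 symbol runs antisense to the gene, on the plus strand, and overlaps it by 356 bases. It held 50 and 53 reads in the PC mirror inputs, 12 and 10 in PC control, 0 and 7 in MC control and 0 and 0 in MC mirror inputs. Together this is 2.24% of the reads counted for egr1. Whether the counting used strand is not stated, so reads from the overlap cannot be assigned to one strand or the other.

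Levels of egr3 were 25.38 and 24.54 CPM in MC control, 31.43 and 24.51 in MC mirror, 20.19 and 16.25 in PC control, and 16.55 and 19.86 in PC mirror fish. The pooled mirror fold change of egr3 was 0.08 ± 0.24 on the log2 scale. Between species, every MC fish (4.62 to 4.98 log2 CPM) lay above every PC fish (4.03 to 4.34). The share of all loci with such a split between species is not given here. In the edgeR test of species, 26.6% of all loci had a smaller p than egr3, which did not pass. The reads of egr2 were fewer and scattered. Its counts were 57 and 34 in MC control, 64 and 8 in MC mirror, 75 and 41 in PC control, and 11 and 70 in PC mirror inputs, so fish of 1 group differed by as much as the groups did. In CPM, egr2 in PC was 7.886 and 3.66 in control and 0.4975 and 3.906 in mirror fish. The pooled mirror fold change of egr2 was -0.82 ± 0.88.

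The fos family members fosb, fosl1 and fosl2 form AP-1 dimers with jun proteins. In mammals fosb also gives a stable splice form that builds up with repeated stimulation, and fosl1 and fosl2 lack the strong activation domain of fos. Input levels of fosb were 5.693 and 7.244 CPM in MC control, 12.29 and 1.184 in MC mirror, 7.992 and 12.85 in PC control, and 6.694 and 6.25 in PC mirror fish. The highest and the lowest fish among MC were thus its 2 mirror fish, and the PC mirror fish lay below the PC controls. That order in PC has no share of all loci beside it here. The pooled log2 fold change of fosb was -0.44 ± 0.68.

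Levels of fosl2 were 24.83 and 23.9 CPM in MC control, 23.93 and 15.21 in MC mirror, 23.66 and 29.81 in PC control, and 24.74 and 39.34 in PC mirror fish. Like egr1, fosl2 was lower in the mirror fish of both MC pairs (-0.05 and -0.65 log2) and higher in both PC pairs (0.06 and 0.40). The batch a values are close to no difference, and whether their signs hold under other size factors was not tested. With RLE size factors the pooled value of fosl2 was 0.04. No share of all loci with these signs is given here. The difference between the species, 0.56 ± 0.55 (95% interval -0.68 to 1.81, unadjusted p 0.332), did not pass, and the pooled fold change was -0.03 ± 0.27.

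Counts of fosl1 were low and followed the batch. In batch a the 4 inputs held 0, 0, 3 and 0 reads (MC control, MC mirror, PC control, PC mirror), and in batch b 14, 21, 40 and 28. Every batch b fish thus lay above every batch a fish, whatever its species or condition. How many of all loci split in this way by batch is not given here. The batch term of the edgeR fit for fosl1 was 5.8 ± 1.77 on the log2 scale (unadjusted p 0.00985, adjusted p 0.424), and none of the 10 genes and 0% of loci passed for batch, where 2007 loci had an unadjusted p under 0.05. A run-on locus 3' of fosl1, with the same symbol, held 16 to 40 reads in every input and 185% of the reads of fosl1 itself, with 19 to 40 reads in MC and 16 to 32 in PC. The mirror contrast of fosl1 (-1.23 ± 1.39) rests on these few reads.

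The stress-responsive factor atf3, which also pairs with AP-1 proteins, had 77 and 16 reads in MC control, 35 and 41 in MC mirror, 30 and 40 in PC control, and 40 and 80 in PC mirror inputs. The Krüppel-like factor klf4, known for its roles in pluripotency and in limiting axon growth in mammals, had 47 and 110, 96 and 35, 34 and 255, and 181 and 102 reads in the same order. These are raw reads, and the PC mirror inputs were the deepest. In CPM, atf3 in PC was 3.155 and 3.571 in control and 1.809 and 4.464 in mirror fish. On the log2 CPM scale, the difference between mirror and control fish changed sign with the batch for both genes. In batch a the mirror fish was higher for klf4 in both species (1.04 in MC and 1.18 in PC, log2), and in batch b lower in both (-1.63 and -2.00). For atf3 the mirror fish was lower in batch a (-1.11 and -0.81) and higher in batch b (1.34 and 0.31). The pooled fold changes, -0.39 ± 0.71 for klf4 and -0.16 ± 0.76 for atf3, therefore average over opposite values, and neither gene showed a mirror effect that repeated between batches.

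Both species were counted on the same set of loci, and whether their reads mapped equally well was not tested. Between the species, PC against MC with conditions pooled, 10.4% of all loci passed the test, 2345 higher and 655 lower in PC. Of the 10 genes 1 passed. This was ier2, which was higher in PC by 1.82 ± 0.38 on the log2 scale (95% interval 0.95 to 2.69, edgeR adjusted p 0.018). Of all loci, 6.06% had a smaller p in this test. The 4 PC fish held 9.634 to 19.28 CPM and the 4 MC fish 1.197 to 9.508 CPM, without overlap. How many of all loci part the species without overlap is not given here. The gap between the lowest PC fish and the highest MC fish was narrow, and the 2 lowest MC values were those of the mirror fish. The call was lost without PC control fish 24 (adjusted p 0.108), in each batch alone (0.261 and 0.257) and in the fit of all 16 libraries (1). Without MC mirror fish 9, fosb passed as well.

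No other gene passed between species. For egr3 the log2 fold change was -0.53 ± 0.24 (95% interval -1.08 to 0.01, adjusted p 0.206) despite the lack of overlap. For npas4 (0.06 ± 0.22) and egr1 (-0.12 ± 0.27) the intervals, -0.44 to 0.56 and -0.72 to 0.48, leave room for differences of either sign. Summed levels of 4 radial glia markers were 3680 to 5220 CPM in MC and 7160 to 13800 CPM in PC inputs, with aqp4 at 0 in all. Of the 3 tested, fabp7 and s100b were higher in PC (log2 fold changes 1.73 and 1.33), and slc1a2 stood at -0.74 ± 0.26 (adjusted p 0.119). Their part in the higher ier2 of PC was not tested.

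Over the 8 inputs, of 45 pairwise correlations of log2 CPM none passed adjustment. The smallest p belonged to egr3 and ier2, with Pearson's r of -0.811 (exact permutation p 0.0116, adjusted p 0.522) and Spearman's rho of -0.857 (exact permutation p 0.0107, adjusted p 0.482). Without the 2 fish farthest from the median of egr3 it was -0.509, and within batch a and batch b it was -0.864 and -0.746. The species lie apart for both genes, and with each species centred on its mean r was -0.566. Between npas4 and ier2, r was 0.727 (exact permutation p 0.0402, adjusted p 0.892) and rho 0.429 (0.299), and r was 0.525 without 2 fish. With each species centred it was 0.984, a value computed after the others were seen and given as a description.

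The loci most like egr1 across the 8 inputs, after centring each species, were igfbp7 (r = 0.971), gipc2 (0.957), plbd2 (0.95), tmem186 (0.95) and twsg1 (0.927), out of 6485 named loci. Most like fosb were glce (0.984), tbkbp1 (0.982), nlgn1 (0.98), tmem214 (0.979) and pla1a (0.974). No other gene of the 10 is among them. With 8 libraries and so many loci searched, these are descriptions of likeness only.

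The pS6 IP asks which RNAs were on ribosomes of active neurons. Here the 10 genes were mostly caught by few libraries. Of 80 possible detections (10 genes in 8 IP libraries) 33 held a count, against 77 of 80 in the inputs. Counts stood in 4 or more of the 8 IP libraries for 5 of the 10 genes (egr1, egr3, npas4, fosb and fosl2), and for 21.3% of the loci tested in the inputs. The genes were detected 20 of 40 times in control IP and 13 of 40 times in mirror IP, and 14 times in MC and 19 times in PC. Over all loci the detections in 4 IP libraries were 32933 in control and 29199 in mirror, and 25617 in MC and 36515 in PC.

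**Figure D3:**
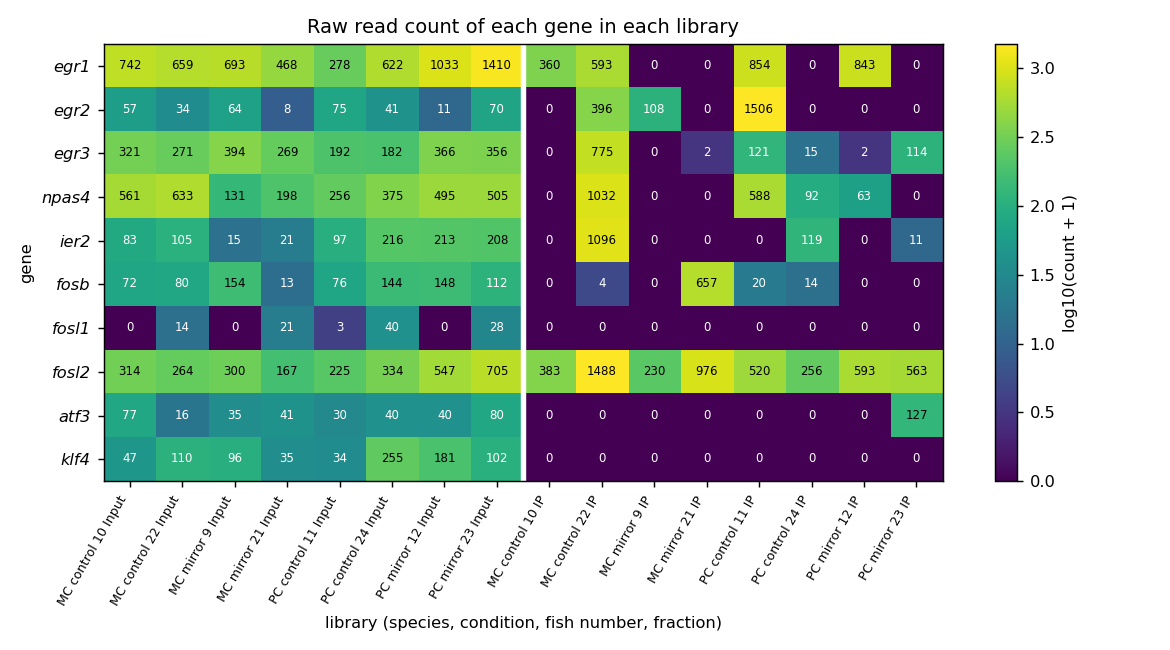
Raw read count of each gene (y axis) in each library (x axis, inputs on the left and IPs on the right), coloured by log10(count + 1). The inputs are filled almost throughout, while the IP side is a patchwork of high counts and 0, filled in all 8 libraries for fosl2 and empty for fosl1 and klf4.

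Within an IP group, often 1 fish held many reads of a gene and the other none. In the IP libraries egr1 had 360 and 593 reads in MC control, 0 and 0 in MC mirror, 854 and 0 in PC control, and 843 and 0 in PC mirror fish. For npas4 the reads were 0 and 1032, 0 and 0, 588 and 92, and 63 and 0 in the same order. Thus egr1 was present in both MC control fish and absent in both MC mirror fish, but in PC it was present in batch a and absent in batch b under either condition. For ier2 they were 0 and 1096, 0 and 0, 0 and 119, and 0 and 11, so ier2 was seen in 3 fish, all of batch b.

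Reads of egr3 in IP were 0 and 775, 0 and 2, 121 and 15, and 2 and 114, and those of egr2 were 0 and 396, 108 and 0, 1506 and 0, and 0 and 0. For fosb they were 0 and 4, 0 and 657, 20 and 14, and 0 and 0. Each of these genes therefore owed most of its IP reads to 1 or 2 fish. A single library held a count of atf3 (127 reads in PC mirror fish 23), and none held fosl1 or klf4. MC control fish 22 held the highest IP count of egr3, npas4 and ier2, and PC control fish 11 that of egr1 and egr2.

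Counted over the 40 pairings of a gene with an IP group, 16 had both fish at 0, 15 had 1 fish at 0 and 9 had counts in both. In 11 (27.5%) 1 fish was at 0 while the other held 100 reads or more, a pattern found in 11.2% of such pairings over all loci tested in the inputs. In the inputs both fish held counts in 37 of 40. Loci with a mean input level of 16 to 64 CPM, where egr1, egr3, npas4 and fosl2 lie, had counts in a median of 4 of 8 IP libraries, and 6.39% of them had counts in all 8. For loci of 4 to 16 CPM (fosb, klf4 and ier2) the median was 1 library, and for 1 to 4 CPM (egr2, fosl1 and atf3) it was 0. An IP count of 0 for these genes is therefore common at their input level.

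Because most groups contain a 0, fold changes in IP are given only for fosl2. In the test of mirror against control within IP, 7 of the 10 genes could be tested and none passed, against 0.097% of 10304 loci. An unadjusted p under 0.05 was found for 2 of the 7 genes, egr1 and egr2, and for 277 loci. DESeq2 called 3 of the 7, egr1, egr2 and npas4, and 871 of the 10304 loci. Between species in IP 0 of 7 passed, against 0.815% of loci. For the mirror effect on IP enrichment, fitted over all 16 libraries, 0 of 10 genes and 0% of loci passed, where 1556 loci had an unadjusted p under 0.05 and DESeq2 called 2 of the 10 genes, egr2 and npas4, and 1821 of 29597 loci.

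Set against input, 4 of the 10 genes were lower in IP in the fit of all 16 libraries, and none was higher. The fit has no term for the fish, so it treats the input and IP of the same fish as independent. In this fit 57.8% of all loci were called and the median log2 fold change over loci was -4.97, so such a count is no departure from the background. The 4 were klf4 (adjusted p 0.00132), atf3 (0.007), fosl1 (0.0142) and fosb (0.0282). For fosb the mean over fish goes the other way, 9.8 CPM in IP against 7.6 CPM in input by library totals, because 1 fish (MC mirror 21) held 657 IP reads; in the other 7 fish IP lay below input. Both klf4 and fosl1 had 0 reads in all 8 IP libraries. Taking 3 counts over the 8 libraries as the floor, the pooled reads put klf4 135-fold and fosl1 16.7-fold lower in IP. These values cover counting error only and not the spread between fish, so they are not lower bounds. The authors' estimates, given below on the log2 scale, are smaller falls for both genes. Of loci at the input level of klf4 22.9% had no IP count in any library, and at that of fosl1 53.1%. With the fish as a replicate block 0 of the 10 genes were called. The number of all loci called for IP against input moved as well, from 17095 to between 0 and 19877 under the alternatives.

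The exception was fosl2, the only one of the 10 with reads in every IP library. It held 383 and 1488 reads in MC control, 230 and 976 in MC mirror, 520 and 256 in PC control, and 593 and 563 in PC mirror IP. Scaled to library totals this is 50.3 to 161 CPM in IP, against 15.3 to 29.9 CPM in the inputs of the same fish on this scale. The log2 ratio of IP to input was 2.26 and 2.62 in MC control, 2.1 and 2.8 in MC mirror, 1.86 and 1.14 in PC control, and 1.79 and 0.75 in PC mirror fish. All 8 fish thus had more fosl2 in IP than in input, which held for 0.78% of all loci (231). Most loci cannot meet this rule because they have IP counts of 0. Among the 1235 loci with counts in all 16 libraries, 18.5% met it. The exact sign-flip permutation p of fosl2 over 8 fish was 0.00781, the smallest that 8 fish can give. Every locus higher in IP in all 8 fish gets this p, so it adds nothing to the count of fish.

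**Figure D4:**
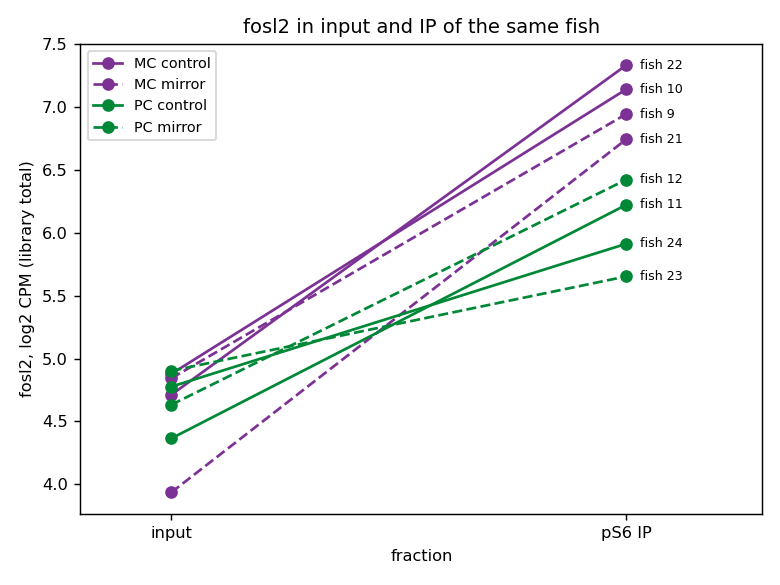
Level of fosl2 in the input and IP of each fish (y axis, log2 CPM per library total; x axis, fraction), with 1 line per fish coloured by species and dashed or solid by condition. All 8 lines rise, from 15.3 to 29.9 CPM in input to 50.3 to 161 CPM in IP, and those of the 4 MC fish are the steepest.

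The edgeR fit of all 16 libraries gave fosl2 a log2 fold change of 1.46 ± 0.65 (95% interval 0.03 to 2.88, adjusted p 0.074), which misses the threshold. The adjusted p of fosl2 passed in only 4 of 18 alternatives. It was 0.00761 with DESeq2, 0.0407 with RLE size factors, 0.0394 with limma-voom and 0.0317 with a stricter low-count filter. In the same order these called 15589, 16605 and 19877 of 29597 loci, and 9892 of 15434 loci. The adjusted p of fosl2 was 0.249 with no low-count filter and 0.444 with the fish as a replicate block. In the authors' deposited table, IP against input has fosl2 at 1.85 ± 0.52 (log2, their SE) with an adjusted p of 0.00305. That table also lists klf4 at -5.57 (adjusted p 4.26e-12) and fosl1 at -2.23 (0.0167), and calls 3 of the 10 genes. The share of all loci called in the authors' table is not given here, so this count has no background beside it. In the edgeR fit of IP against input the share was 57.8%. In the authors' deposited tables of the mirror effect on enrichment and of its species difference, 0 of the 9 genes with an adjusted p passed.

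The fosl2 ratio differed between the species more than between conditions. It averaged 2.44 ± 0.32 (SD, n = 4) in MC and 1.38 ± 0.53 (SD, n = 4) in PC, without overlap, and the exact permutation p was 0.0286 (two-sided), the smallest that 4 against 4 can give. This contrast was picked after the values were seen. All 4 MC fish above all 4 PC fish is also found for 6.15% of the 1235 loci counted in every library, whose median ratio was 0.46 in MC and 0.24 in PC. In the edgeR test of PC against MC within IP, fosl2 stood at -0.53 ± 2.12 on the log2 scale (unadjusted p 0.804) and did not pass. That test compares IP levels and not the ratio. The mirror effect on fosl2 in IP, -0.17 ± 2.11, and on its enrichment, -0.15 ± 1.28, also had errors far larger than the values. The fitted spread draws on all loci, many with IP counts of 0, so these errors do not measure the spread of fosl2 itself. Within the IP groups the SD of its log2 CPM was 0.12 to 0.73.

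Other genes of the same pathway were read from lists of symbols. Their counts between species stand beside the 10.4% of all loci called there. Of 56 further immediate early factors 12 were matched, and 0 of the 12 passed for mirror in the inputs. Their median log2 fold change was -0.10, beside -0.08 for all loci. The smallest p values belonged to klf9, a hormone-responsive Krüppel-like factor (-1 ± 0.63), per1, a clock gene that also responds to activity (0.54 ± 0.41), and myc, a growth factor target (0.56 ± 0.58). Between species 1 of the 12 passed: mafb, a bZIP factor known from macrophages and hindbrain, was lower in PC by -0.91 ± 0.23 (adjusted p 0.0371).

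Of the kinases, channels and resident factors upstream, 24 of 40 symbols were matched and 0 passed for mirror. The smallest p values were those of camk2a (-0.53 ± 0.23), a calcium-dependent kinase, camk4 (-0.43 ± 0.25), which acts on CREB in the nucleus, and grin2a (0.37 ± 0.25), an NMDA receptor subunit. Between species 4 passed. The kinase gene camk2a was higher in PC by 2.43 ± 0.25 (adjusted p 0.000886). Lower in PC were grin2b, an NMDA receptor subunit (-1.5 ± 0.22), cacna1c, an L-type calcium channel (-1.08 ± 0.20), and ep300, a histone acetyltransferase (-1.04 ± 0.24).

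Of 16 dimer partners and corepressors 11 were matched, and 0 passed for mirror. The smallest p values were those of atf7 (0.93 ± 0.41), atf1 (-0.73 ± 0.37) and batf3 (2.72 ± 1.47), all bZIP factors. Higher in PC were 2 of the 11, atf4 (0.99 ± 0.24, adjusted p 0.0302), a translationally controlled stress factor, and batf3 (6.18 ± 1.61, adjusted p 0.0499), an AP-1 partner.

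Among the activity-induced effectors, which are not transcription factors, 14 of 28 could be tested and 0 passed for mirror, with 11 of 14 values below 0 and a median of -0.23. The smallest p values were those of inhba (-4.63 ± 1.90), an activin subunit with few reads, pcsk1 (-0.48 ± 0.23), a prohormone convertase, and gadd45g (-0.53 ± 0.26), a stress and demethylation factor. Within MC dusp5, an ERK phosphatase, stood at 20.4 and 45.1 CPM in control and 9.49 and 16.2 CPM in mirror fish. Its log2 fold change was -1.29 ± 0.37 (edgeR adjusted p 0.539). For gadd45g the MC values were 17.2 and 34.5 CPM in control and 9.49 and 13.7 CPM in mirror fish (-1.10 ± 0.37, adjusted p 0.622). Neither gene passed. Both MC mirror fish lay below both MC control fish for 6 of the 14 effectors, which are dusp1, sgk1, tiparp and rheb beside these, and for 18.5% of all loci. Between species dusp5 (1.65 ± 0.27), rheb, a GTPase that activates mTOR (1.37 ± 0.19), and gadd45b (0.97 ± 0.25) were higher in PC, and pcsk1 was lower (-1.08 ± 0.23).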

How the data were processed

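Raw read counts of 61384 assembled loci were deposited for the 16 libraries, with gene symbol, class code and coordinates per the file headers. Per the submitters' processing notes cutadapt, HISAT2, StringTie and DESeq2 were used. No version, genome build or strand setting is given in the sources used here. Beside the counts the authors deposited 3 DESeq2 tables with a log2 fold change and its standard error, a p-value, and an adjusted p-value in which 100 was read as missing. Depth is given in the report.

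From the counts, edgeR 4.0.16 in R 4.3.3 (TMM, filterByExpr, 1 coefficient per group plus batch, quasi-likelihood F tests, two-sided) was fitted to the 8 inputs, the 8 IP libraries or all 16, with Benjamini-Hochberg adjustment over all loci tested and a threshold of 0.05. The filter kept 28742, 10304 and 29597 loci. CPM values use TMM sizes within a fraction unless library totals are named, and log2 CPM adds 0.5 to each count. The fit of the inputs was tested on simulated counts, for the mirror contrast only, with the same spread for all loci and no batch effect. The fits of the IP libraries and of all 16 were not tested in this way. DESeq2 1.42.0 and limma 3.58.1 served as alternatives, beside RLE size factors, other filters, no batch term, each batch alone, the inputs thinned to equal depth, all 16 libraries in 1 fit, the fish as a block and leaving out each fish. All 10 genes are named for the pooled mirror contrast in the inputs, and only some of them for the other comparisons. Of each other list, the genes that pass and the 3 with the smallest p of the pooled mirror contrast are named. Genes that differ between species, dusp5 and gadd45g were added. The genes and lists were chosen with earlier results of these data known. Input and IP with 1 number come from 1 fish per the labels; the correlation of their deviations from group means over 502 abundant loci was 0.12 for MC control, 0.07 for MC mirror, 0.64 for PC control and 0.20 for PC mirror fish.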

Additional observations from a re-analysis of the deposited data

Results flagged for a closer look

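Among the 10 genes, 40 sets of 4 inputs were searched for a fish far from the other 3 of its set, and 3 sets held one, where chance flags about 1 set in 20. For egr1, PC control fish 11 stood at 4.87 log2 CPM, below the 5.80 to 5.90 of the other control inputs. For egr3, MC mirror fish 9 stood at 4.98 log2 CPM, above the 4.62 to 4.67 of the other MC inputs. For fosl2, MC mirror fish 21 stood at 3.93 log2 CPM, below the 4.58 to 4.64 of the other MC inputs.

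For egr1 and fosl2 the mirror fish were lower in both MC pairs and higher in both PC pairs, a pattern whose share of all loci is not given here. For fosl2 the batch a differences were only -0.05 (MC) and 0.06 (PC) log2. The mirror effect was higher in PC than in MC by 0.82 log2 for egr1 (interaction p 0.151 in edgeR, unadjusted) and by 0.56 for fosl2 (0.332), so neither difference passed its test.

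The comparisons did not use 2 further loci that carry a symbol of the set and held reads. The antisense locus under the egr1 symbol reached 53 reads, in a PC mirror input, and the run-on locus under the fosl1 symbol reached 40 reads, in an MC control input.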

How the results depend on the processing

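Called genes of the 10 moved as follows. DESeq2 called 1 for mirror in the inputs, 2 for mirror in MC inputs, 3 for mirror in IP, 2 for PC against MC in IP, 7 for IP against input and 2 for the mirror effect on enrichment. Of all loci, DESeq2 called 139 and 374 of 28742, 871 and 1410 of 10304, and 15589 and 1821 of 29597 in the same order. With no low-count filter 1 was called for mirror in the inputs and 1 in MC inputs, beside 272 and 550 of 52868 loci. limma-voom called 8 for IP against input, beside 19877 of 29597 loci, and batch b alone called 0. With both MC fish of batch a left out, a choice made after seeing the data, 0 were called for IP against input, and 0 with the fish as a replicate block. For PC against MC in the inputs 0 were called in batch a alone, 0 in batch b alone and 0 in the fit of all 16 libraries. Leaving out 1 fish gave 0 to 1 for mirror in the inputs, 0 to 1 in MC inputs, 0 to 2 for PC against MC in the inputs and 2 to 5 for IP against input. In those fits the lone fish of a group is assumed to vary like the others. The counts of all loci moved too and are given below, so these counts of genes are not particular to the 10.

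The sign of some uncalled log2 fold changes turned. For mirror in the inputs fosl2 was 0.04 with DESeq2, 0.04 with RLE size factors and 0.00 in batch a alone, where fosb was 0.42 and klf4 1.11, and atf3 was 0.85 in batch b alone. In IP fosl2 was 0.18 in batch a alone. Leaving out 1 fish, the mirror values in the inputs ranged from -0.14 to 0.43 for egr1, -0.07 to 0.18 for egr3, -1.66 to 0.2 for fosb, -0.34 to 0.16 for fosl2, -0.74 to 0.59 for atf3 and -1.12 to 0.36 for klf4. They ranged from -0.86 to 0.12 for egr1 in MC, -0.46 to 0.13 for fosl2 in IP and -0.56 to 0.39 for its enrichment. The cause was not tested.

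The number of all loci called moved further. It was 3 for mirror in the inputs and 0 to 491 under the alternatives, 15 and 0 to 964 in MC, 0 and 0 to 113 in PC, and 3 and 0 to 624 for the species difference. It was 3000 and 0 to 5918 for PC against MC in the inputs, 10 and 0 to 871 for mirror in IP, 84 and 0 to 1410 for PC against MC in IP, 17095 and 0 to 19877 for IP against input, and 0 and 0 to 1821 for the mirror effect on enrichment. The replicate block left 181 loci for IP against input. With only 2 fish per group, single calls near the threshold are uncertain, and fosl1, with 0 to 3 reads in the batch a inputs, gives little precision.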

Other observations

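Reads of the locus antisense to egr1 were the more numerous in PC: 50 and 53 in the mirror and 12 and 10 in the control inputs, against 0 to 7 in the MC inputs. The PC mirror inputs were also the deepest, with 22058698 and 23594320 counts in all.

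In IP, ier2 was counted in 3 fish, all of batch b (1096, 119 and 11 reads), while egr1 in PC was counted only in the fish of batch a (854 and 843 reads). MC control fish 22 held counts of 7 of the 10 genes in its IP library, and the other IP libraries held 2 to 6. PC mirror fish 23, with the most IP counts (11186928), held 4.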
